A study of Mus musculus with 9 samples.

Results

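The genes described here are 7 genes of the paraventricular neuroendocrine system: the peptide genes Crh, Avp and Oxt, the transcription factor genes Sim1 and Otp, the CRH receptor gene Crhr1 and the gene of the CRH-binding protein, Crhbp. They were chosen by symbol, at a time when earlier results of these data were known. They are 7 of the 35975 genes with a quantified transcript, all 7 were among the 15340 genes tested, and all 7 are among the 14592 gene names in the authors' table. The RNA had been sequenced from the mediobasal hypothalamus (MBH), which holds the arcuate nucleus, of male offspring at weaning (P21). In the control group (CTRL, 4 libraries) the C57Bl/6 dams drank water. In the other group (Emul, 5 libraries) they drank water with 1% carboxymethylcellulose (CMC) and 1% polysorbate 80 (P80), 2 emulsifiers used in processed food. The dams had received this from 6 weeks before mating until the end of lactation. Direct intake of the water by the pups before weaning cannot be told apart from exposure through the dam. The methods count 4 control and 5 emulsifier litters, and no allele or treatment other than the emulsifiers is named for either group.

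Parvocellular neurons of the paraventricular nucleus (PVH) release corticotropin-releasing hormone, encoded by Crh, into the portal vessels of the pituitary, where it acts on CRHR1 and sets off the release of ACTH. Magnocellular neurons of the PVH and the supraoptic nucleus make vasopressin (Avp) and oxytocin (Oxt), each cut from a precursor that also holds a neurophysin, and release them into the blood from the posterior pituitary. The transcription factors SIM1 and OTP are needed for these neurons to form. Outside these nuclei, Avp is also a gene of the suprachiasmatic nucleus, and Otp is active in other hypothalamic neurons, among them cells of the arcuate nucleus.

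Each library held between 28245360 and 46067534 estimated counts, the lowest total being that of CTRL 3. Levels are given as CPM, counts scaled to a common library total, on a log2 scale, or as TPM, which also allow for transcript length. Markers of the arcuate nucleus summed to between 135 and 185 CPM in CTRL and between 138 and 187 CPM in Emul, with Kiss1 as the marker that stayed under 0.5 CPM in every library. Summed markers of the thalamus, which borders on the hypothalamus, spanned 345 to 409 CPM in CTRL and 366 to 576 CPM in Emul, the highest sum being that of Emul 3. Of 6 pituitary markers, Gh, Prl, Lhb and Pou1f1 stayed under 0.5 CPM in every library, while Tshb was at 4.52 to 6.32 CPM and Cga at 2.23 to 5.44 CPM. Tissue of this kind holds many cell types, so that fewer cells of a type and less RNA per cell cannot be told apart. How much of the PVH, which lies above the MBH, came with each dissection is not given in the sources used here.

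Avp and Oxt are neighbours on chromosome 2. In mm10 (GENCODE M21), Oxt lies on the plus strand at chr2:130576173-130577054 and Avp on the minus strand at chr2:130580620-130582554, with 3565 bases between their 3′ ends. Each has 3 exons and 1 quantified transcript. The middle exon, which lies within the coding sequence and encodes the central part of the neurophysin, is 202 bases long in both genes and was 95.5% identical, against 61.1% for the first exon and 41.1% for the third. Both middle exons are shown here because they set how well reads of these genes can be told apart, with the stretch that is identical in both in capitals, 125 of its 127 bases lying in this exon.
Avp exon 2, chr2:130581056-130581257, minus strand: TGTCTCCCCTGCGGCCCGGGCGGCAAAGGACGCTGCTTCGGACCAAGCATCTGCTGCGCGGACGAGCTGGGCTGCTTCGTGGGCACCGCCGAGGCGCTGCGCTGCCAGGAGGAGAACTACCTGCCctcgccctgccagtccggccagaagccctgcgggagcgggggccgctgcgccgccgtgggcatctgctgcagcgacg
Oxt exon 2, chr2:130576591-130576792, plus strand: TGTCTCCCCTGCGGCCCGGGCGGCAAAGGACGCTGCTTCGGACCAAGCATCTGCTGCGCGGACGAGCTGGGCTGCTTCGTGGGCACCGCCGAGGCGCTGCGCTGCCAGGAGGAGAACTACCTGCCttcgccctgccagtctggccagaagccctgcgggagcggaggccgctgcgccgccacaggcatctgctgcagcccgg
Of all 31-base words of the Avp transcript, 17.7% also occurred in a quantified transcript of another gene, and that gene was always Oxt. These were 97 words. For the Oxt transcript the share was 21.9%, or 111 words, found in 26 other genes, Avp among them. Reads from the stretch identical in both can only be divided between Avp and Oxt by estimation. The values of both genes are therefore less certain than those of Crh, Crhr1 and Crhbp, whose transcripts shared no such word with another gene.

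The promoters of Avp and Oxt are shown because the levels of both genes moved together over the libraries. They are the 250 bases before the RefSeq start sites (GRCm38.p6), 5′ to 3′ on the strand of the gene, with every TGACC (a core of nuclear receptor binding sites) and CACGTG (the E-box) on either strand in capitals.
Avp, chr2:130582589-130582838, minus strand: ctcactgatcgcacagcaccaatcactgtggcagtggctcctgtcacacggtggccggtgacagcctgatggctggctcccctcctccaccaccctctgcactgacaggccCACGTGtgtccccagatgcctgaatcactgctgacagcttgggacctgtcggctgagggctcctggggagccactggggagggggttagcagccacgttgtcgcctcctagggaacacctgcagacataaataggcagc
Oxt, chr2:130575919-130576168, plus strand: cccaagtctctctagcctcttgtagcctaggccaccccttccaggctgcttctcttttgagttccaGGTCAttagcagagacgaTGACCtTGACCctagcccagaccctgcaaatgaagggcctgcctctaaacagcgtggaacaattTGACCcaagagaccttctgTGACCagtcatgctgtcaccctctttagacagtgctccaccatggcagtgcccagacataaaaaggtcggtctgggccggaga
The Oxt promoter held 5 matches to TGACC, the first starting at -184 and the last at -83 from the start site, and the Avp promoter held none. The Avp promoter held 1 CACGTG, starting at -139, and the Oxt promoter held none. Of 32851 promoters of 300 bases in the same RefSeq table, 40.48% held at least 1 TGACC and 7.15% held CACGTG. Among the other genes, Crhbp had 1 match to TGACC, and Sim1, Otp and Crhr1 had no match to either. A match of letters is not a site of binding. A promoter of Crh was not analysed here.

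By TPM, Avp had the highest level of the 7 genes with a mean of 495 over the 9 libraries (298 to 868), followed by Oxt with 265 (87.9 to 668). The ranges of Avp and Oxt overlapped, although Avp was the higher of the pair in 9 of 9 libraries. Otp, with a mean of 37.0 TPM, lay below every Oxt value and above every Crhbp value. Crhbp had a mean of 12.7 TPM, above all Crhr1 values. The ranges of Crhr1 (6.65 TPM) and Sim1 (5.36 TPM) overlapped, as did those of Sim1 and Crh (5.12 TPM). Crhr1 was above Sim1 in 8 of 9 libraries, and Sim1 was above Crh in 6 of 9. Without the correction for length, Sim1, whose main transcript is 7355 bases long, had rank 4 by CPM, Crhbp rank 5 and Crhr1 rank 6.

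Maternal emulsifiers were compared with water by limma-voom over all 15340 genes. A log2 fold change below is the fitted level in Emul relative to CTRL and is given with a standard error (SE). The cutoff was that of the methods, an unadjusted p-value under 0.05 and a change of more than 1.5-fold. Of the 7 genes, 0 passed it, against 0.469% of all genes tested (72 of 15340). At an unadjusted p-value under 0.05 alone the count was also 0 of 7, against 15.8% of all genes, and by edgeR's quasi-likelihood test and DESeq2 it was 0 of 7 as well. CTRL and Emul overlapped in log2 CPM in all 7 genes, whereas 6.6% of all genes did not overlap. In the authors' log2 CPM table, fitted by limma, 0 of 7 had an unadjusted p-value under 0.05, against 13.5% of the genes there, and 0 of 7 passed the cutoff, against 0.685%. The values of each gene follow, the peptides first.

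Crh, on the minus strand at chr3:19693401-19695396, was measured with 81 to 212 estimated counts per library. Its log2 CPM in CTRL 1 to 4 was 1.33, 1.01, 2.63 and 1.08, and in Emul 1 to 5 it was 1.71, 1.26, 1.19, 2.24 and 1.74. CTRL 3 was the highest library and the other CTRL libraries lay low, so that the mean was 1.51 ± 0.76 for CTRL (SD, n = 4) and 1.63 ± 0.43 for Emul (SD, n = 5). The log2 fold change was 0.21 (SE 0.30, 95% confidence interval -0.45 to 0.87, limma-voom adjusted p = 0.781). On a linear scale this interval runs from 0.730-fold to 1.82-fold, so changes of more than 1.5-fold upward lie within it. Without CTRL 3 the log2 fold change was 0.51. The unadjusted limma-voom p-value was then 0.0525 (adjusted 0.396), the lowest of any of the 7 genes under any alternative.

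Avp was measured with 2538 to 5889 estimated counts. Its log2 CPM was 6.61, 6.66, 7.44 and 6.37 in CTRL 1 to 4 and 6.94, 6.82, 6.07, 7.02 and 6.56 in Emul 1 to 5. The Emul libraries included the lowest one, Emul 3, and the second highest, Emul 4, and CTRL 1, 2 and 4 lay within the Emul range. Means were 6.77 ± 0.47 (SD, n = 4) and 6.68 ± 0.38 (SD, n = 5), with a log2 fold change of -0.07 (SE 0.21, 95% confidence interval -0.53 to 0.40, limma-voom adjusted p = 0.911). The interval does not reach a 1.5-fold change in either direction. The sign rested on single libraries, with a log2 fold change of 0.14 without CTRL 3 and 0.09 without Emul 3.

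Oxt, with 675 to 3951 estimated counts, was the most variable of the 7 genes. Its log2 CPM was 5.25, 5.61, 6.91 and 4.94 in CTRL 1 to 4 and 5.99, 5.11, 4.16, 6.45 and 4.82 in Emul 1 to 5, a 6.71-fold range from Emul 3 to CTRL 3. Both groups held high and low libraries, with a mean of 5.68 ± 0.87 for CTRL (SD, n = 4) and 5.31 ± 0.91 for Emul (SD, n = 5). The log2 fold change was -0.29 (SE 0.45, limma-voom adjusted p = 0.794), and its 95% confidence interval of -1.27 to 0.68 contains a fall to 0.416-fold as well as a rise to 1.61-fold. It was 0.07 without CTRL 3 and -0.59 without Emul 4. Since Avp and Oxt share reads, their ratio within a library was also compared. The TPM of Avp over that of Oxt was 2.33, 1.88, 1.30 and 2.44 in CTRL 1 to 4 and 1.75, 2.94, 3.39, 1.35 and 3.03 in Emul 1 to 5. It was lowest in the 2 libraries with most Oxt, and the log2 ratio did not differ between the groups beyond their spread (difference 0.28, two-sided exact permutation test, p = 0.421).

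**Figure D1:**
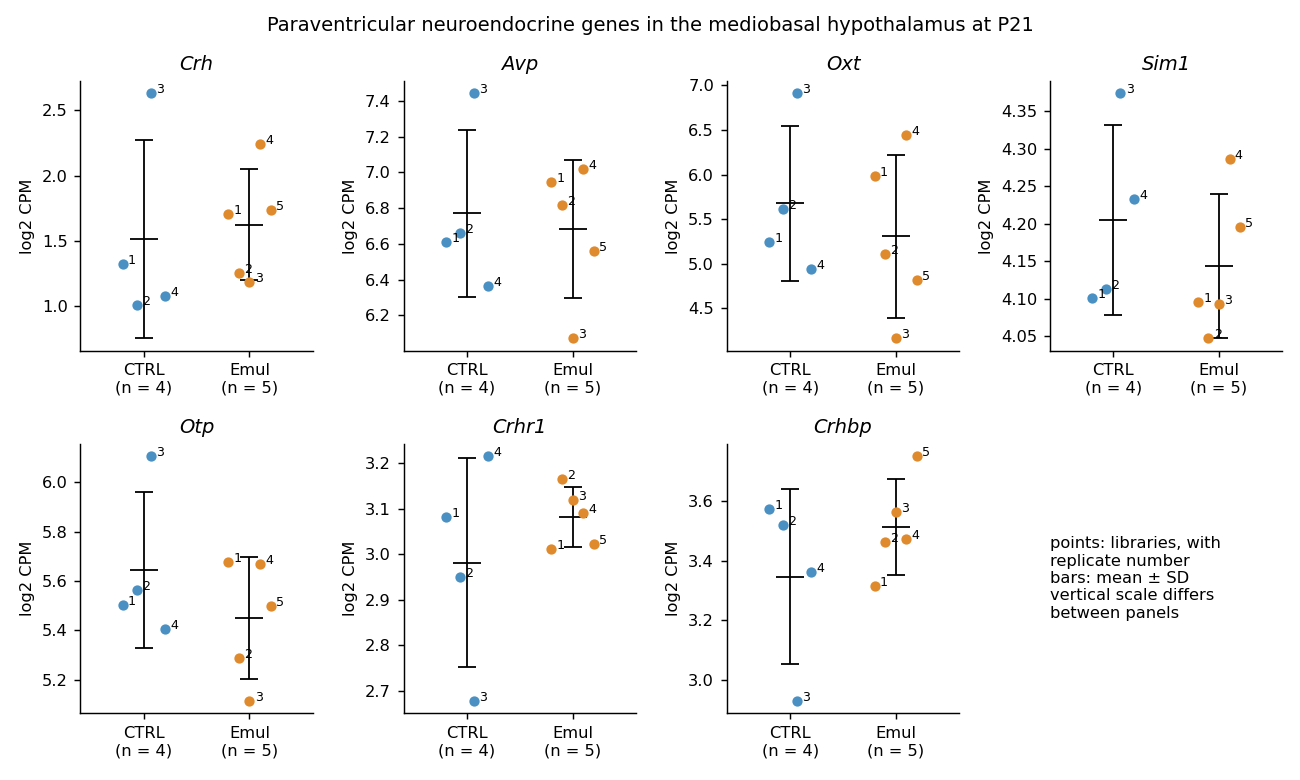
Log2 CPM of each of the 7 genes in the 4 CTRL and 5 Emul libraries. Points are libraries with their replicate number, bars are the mean ± SD, and the vertical scale differs between panels. CTRL 3 is the highest library for Crh, Avp, Oxt, Sim1 and Otp and the lowest for Crhr1 and Crhbp, and the groups overlap in every panel.

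The transcription factor genes varied less. Sim1, on the plus strand at chr10:50894754-50989152, was the steadiest of the 7, with log2 CPM of 4.10, 4.11, 4.37 and 4.23 in CTRL 1 to 4 and 4.10, 4.05, 4.09, 4.29 and 4.20 in Emul 1 to 5. The whole range was 1.25-fold, again with CTRL 3 and Emul 4 at the top. Its log2 fold change was -0.05 (SE 0.07, 95% confidence interval -0.20 to 0.10, limma-voom adjusted p = 0.764), so a change of 1.5-fold lies outside the interval. The longer of its 2 transcripts held 96.2% of the counts of the gene, and its share was 95.7% in CTRL and 96.5% in Emul (two-sided exact permutation test, p = 0.214).

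Otp, on the plus strand at chr13:94875602-94885130, had log2 CPM of 5.50, 5.56, 6.11 and 5.40 in CTRL 1 to 4 and 5.68, 5.29, 5.11, 5.67 and 5.50 in Emul 1 to 5. As for Oxt, CTRL 3 was highest and Emul 3 lowest. The log2 fold change was -0.17 (SE 0.14, 95% confidence interval -0.48 to 0.14, limma-voom adjusted p = 0.584), and -0.04 without CTRL 3. Its coding transcript held 98.9% of the counts.

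Crhr1, the gene of the receptor through which CRH acts on the pituitary and on many neurons of the brain, lies on the plus strand at chr11:104132855-104175523. Its log2 CPM was 3.08, 2.95, 2.68 and 3.22 in CTRL 1 to 4 and 3.01, 3.17, 3.12, 3.09 and 3.02 in Emul 1 to 5. Here CTRL 3 was the lowest library, and all 5 Emul libraries lay within the CTRL range. The log2 fold change was 0.08 (SE 0.09, 95% confidence interval -0.13 to 0.28, limma-voom adjusted p = 0.720), and -0.00 without CTRL 3.

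Crhbp, on the minus strand at chr13:95431371-95444924, encodes a secreted protein that binds CRH and urocortin and keeps them from their receptors. Summed over both of its transcripts, log2 CPM was 3.57, 3.52, 2.93 and 3.36 in CTRL 1 to 4 and 3.32, 3.46, 3.56, 3.47 and 3.75 in Emul 1 to 5. CTRL 3 was again the lowest library and the groups overlapped. The log2 fold change was 0.13 (SE 0.12, 95% confidence interval -0.12 to 0.39, limma-voom adjusted p = 0.616), and 0.03 without CTRL 3.

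The level of Crhbp depended on which transcripts were counted. The transcript of 1779 bases held 85.1% of the counts of the gene over all libraries and between 68.3% and 100% in single libraries. The transcript of 1701 bases held the remaining 14.9%, with 144, 50.5, 0 and 107 estimated counts in CTRL 1 to 4 and 24.6, 119, 58.2, 0 and 72.7 in Emul 1 to 5. CTRL 3 and Emul 4 thus had 0 counts on it, although the gene as a whole had 216 and 501 counts there. Of their 31-base words, 2.93% of those of the shorter and 7.26% of those of the longer were not found in the other, so the division between them rests on few reads. The share of the longer transcript did not differ between the groups beyond their spread (83.3% in CTRL and 87.9% in Emul, two-sided exact permutation test, p = 0.579).

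In the authors' log2 CPM table, Crhbp followed the 1701-base transcript alone. Its values there were 2.04, 0.47, -4.17 and 1.45 in CTRL 1 to 4 and -0.46, 1.65, 0.79, -4.17 and 1.15 in Emul 1 to 5. Relative to the log2 CPM of that transcript they were shifted by a median of 0.12, with no library departing from this by more than 0.03, whereas their difference from the sum of both transcripts ran from -7.65 to -1.53. The log2 fold change from the table was -0.16 (SE 1.37, limma adjusted p = 0.975), of the opposite sign to that of the summed gene. For the other 6 genes the table and the summed transcripts differed by at most 0.18 on the log2 scale in any library, and their log2 fold changes had the same sign.

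**Figure D2:**
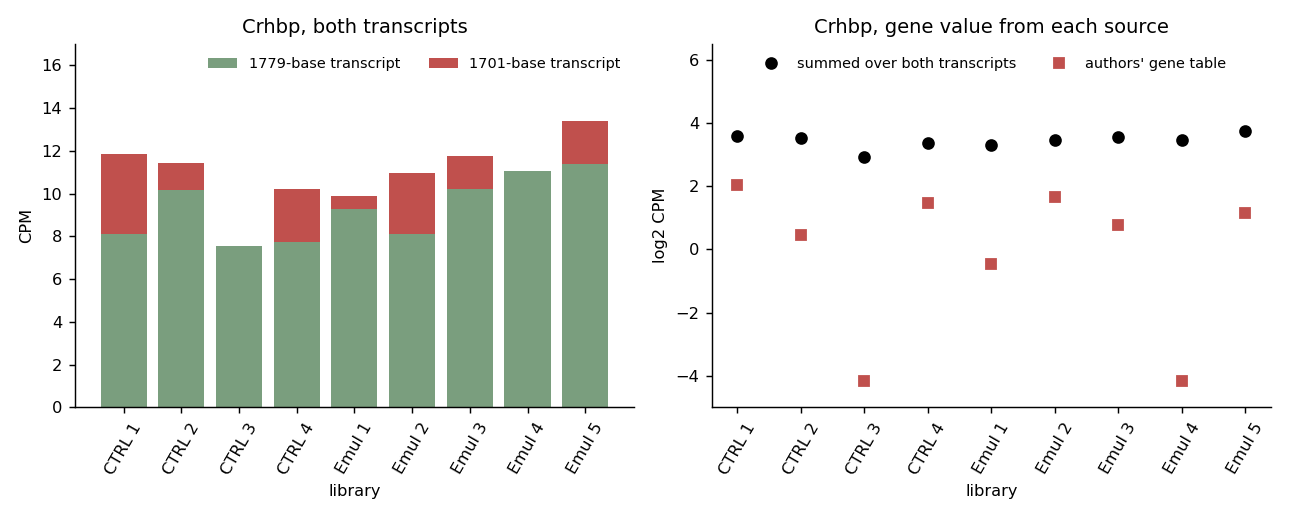
Crhbp by transcript and by source. Left, CPM of the 1779-base and 1701-base transcripts stacked for each library. Right, log2 CPM of the gene summed over both transcripts and in the authors' table. The table drops to -4.17 in CTRL 3 and Emul 4, where the 1701-base transcript has 0 counts, while the sum stays between 2.93 and 3.75 in all 9 libraries.

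Across the 7 genes, the median size of the log2 fold change was 0.13 and the median SE was 0.14, against 0.06 and 0.06 over all genes tested. The spread between libraries of one group was large for the peptides. The residual standard deviation of log2 CPM, after taking out the group means, lay at percentile 99.5 of all genes tested for Oxt, 99.0 for Crh and 97.9 for Avp. It lay at percentile 93.0 for Otp, 88.1 for Crhbp, 76.6 for Crhr1 and 62.2 for Sim1. Of the sum of squares of Crh over the libraries, 1.17% lay between the groups. It was 1.35% for Avp and 5.18% for Oxt, and no more than 14.7% in any of the 7 genes, the highest share being that of Crhbp.

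**Figure D3:**
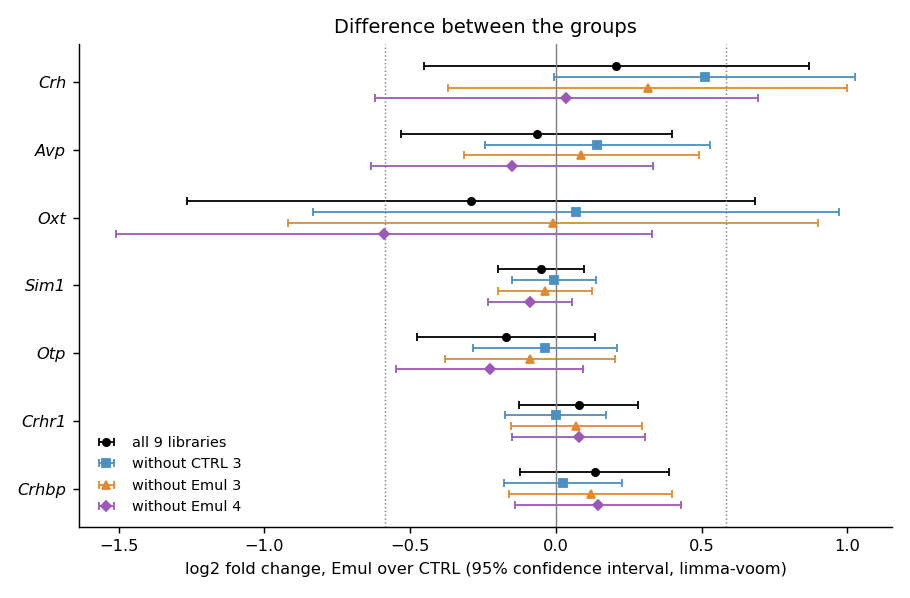
Log2 fold change of each of the 7 genes, Emul over CTRL, with its 95% confidence interval from limma-voom, for all 9 libraries and without CTRL 3, Emul 3 or Emul 4. The solid line marks no change and the dotted lines a 1.5-fold change. Every interval includes 0, and Oxt runs from -0.59 without Emul 4 to 0.07 without CTRL 3.

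The genes were then compared with each other over the 9 libraries, as 28 pairs of the 7 genes and the summed level of 7 suprachiasmatic markers. Avp and Oxt varied together (Pearson r = 0.943, exact permutation p = 0.000248, adjusted p = 0.00517, n = 9; Spearman rho = 0.933, adjusted p = 0.0184). The correlation was 0.834 without CTRL 3 and Emul 3, the 2 libraries farthest from the median of Avp, and 0.948 after the group means were taken out. The part that reads shared by both genes have in it was not tested. Oxt and Otp, on different chromosomes, were correlated as closely (r = 0.923, exact permutation p = 0.000369, adjusted p = 0.00517, n = 9; rho = 0.917, adjusted p = 0.0184). Without CTRL 3 and Emul 4 this r was 0.880.

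Other pairs leaned on few libraries. Avp and Otp had r = 0.890 (exact permutation, adjusted p = 0.0273, n = 9) and rho = 0.817 (adjusted p = 0.101), and r fell to 0.527 without CTRL 3 and Emul 3. Crh was correlated with Avp at r = 0.806 (rho = 0.650, exact permutation, adjusted p = 0.0392 for r and 0.246 for rho, n = 9), but r was 0.427 without CTRL 3 and Emul 4, so that the relation rests on these libraries. The same held for Crh with Otp (r = 0.808 and 0.435), with Oxt (0.783 and 0.230) and with Sim1 (0.774 and 0.0420). Otp and Crhr1 ran in opposite directions (r = -0.839, exact permutation, adjusted p = 0.0434, n = 9; rho = -0.783, adjusted p = 0.121), with r = -0.641 without CTRL 3 and Emul 3. In all, 8 of the 28 pairs had an adjusted p-value under 0.05 by Pearson's r and 2 by Spearman's rho. Without CTRL 3, 0 of 28 did by r, the lowest adjusted p-value then being 0.0590, for Avp with Oxt (r = 0.905) and for Oxt with Otp (r = 0.882).

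CTRL 3 and Emul 4 stood at the top for Crh, Avp, Oxt and Sim1, and Emul 3 at the bottom for Avp, Oxt and Otp. CTRL 3 also had the lowest depth and the lowest arcuate sum, at 135 CPM. Of the arcuate markers, only Th (log2 CPM 4.64) and Tac2 (3.94) were lowest in CTRL 3, and the others, among them Pomc, Agrp and Npy, were not. The sum of telencephalic markers was highest in CTRL 3, at 13.6 CPM against 7.79 to 10.2 CPM in the other libraries. The summed suprachiasmatic markers spanned 50.3 to 67.1 CPM in CTRL and 38.0 to 60.2 CPM in Emul. Of these 7 markers 5 were tested, all 5 with a log2 fold change below 0, and 1 of them passed the cutoff. This was Vip, with a log2 fold change of -1.50 (SE 0.57, unadjusted p = 0.0223, limma-voom adjusted p = 0.237). The groups overlapped in Vip (two-sided exact permutation test, p = 0.127). Its log2 CPM was 2.96 and 3.19 in Emul 1 and 4, within the CTRL range of 2.42 to 3.41. In Emul 2, 3 and 5 it was 0.42, 0.17 and -0.17. Nms and Prok2 stayed at or under 1.18 and 1.09 CPM. The correlation of this sum with Avp was 0.422 (rho = 0.517, exact permutation, adjusted p = 0.291 for r and 0.301 for rho, n = 9), and with Oxt it was 0.607 (rho = 0.733, adjusted p = 0.138 and 0.172). Of 3 lateral hypothalamic markers, 2 had a log2 fold change below 0 and 1 above 0. Hcrt passed the cutoff, as did 0.469% of all genes tested. Its log2 fold change was -0.70 (SE 0.23, unadjusted p = 0.0102, limma-voom adjusted p = 0.189), and the groups overlapped. The 3 markers summed to between 434 and 484 CPM in CTRL and between 275 and 452 CPM in Emul. What the markers of these regions have to do with the levels of the 7 genes was not tested. The part of the thalamic sum of Emul 3 or of the depth of CTRL 3 in these levels was not tested either.

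By likeness of profile, measured as Pearson's r of log2 CPM over the 9 libraries, the 5 genes nearest to Oxt were Cacna2d2 (r = 0.991), Zfp783 (0.985), Ucn3 (0.965), Prdm12 (0.962) and Ranbp3 (0.950). Those nearest to Avp were Ranbp3 (0.957), Zfp783 (0.944), Oxt, Sst and Cplx2 (0.943 each). For Crh they were Gm14698 (0.949), Ctnnb1 (0.946), Vmn1r209 (0.930), Xxylt1 (0.929) and Prpsap2 (0.909). These are the highest of 15339 correlations over only 9 libraries, and several of these genes changed little in level. Log2 CPM of Cacna2d2 ran from 7.49 to 7.65, whereas that of Ucn3 ran from -1.34 to 2.27. Oxt was the one of the 3 peptide genes that also appeared among the nearest genes of another.

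**Figure D4:**
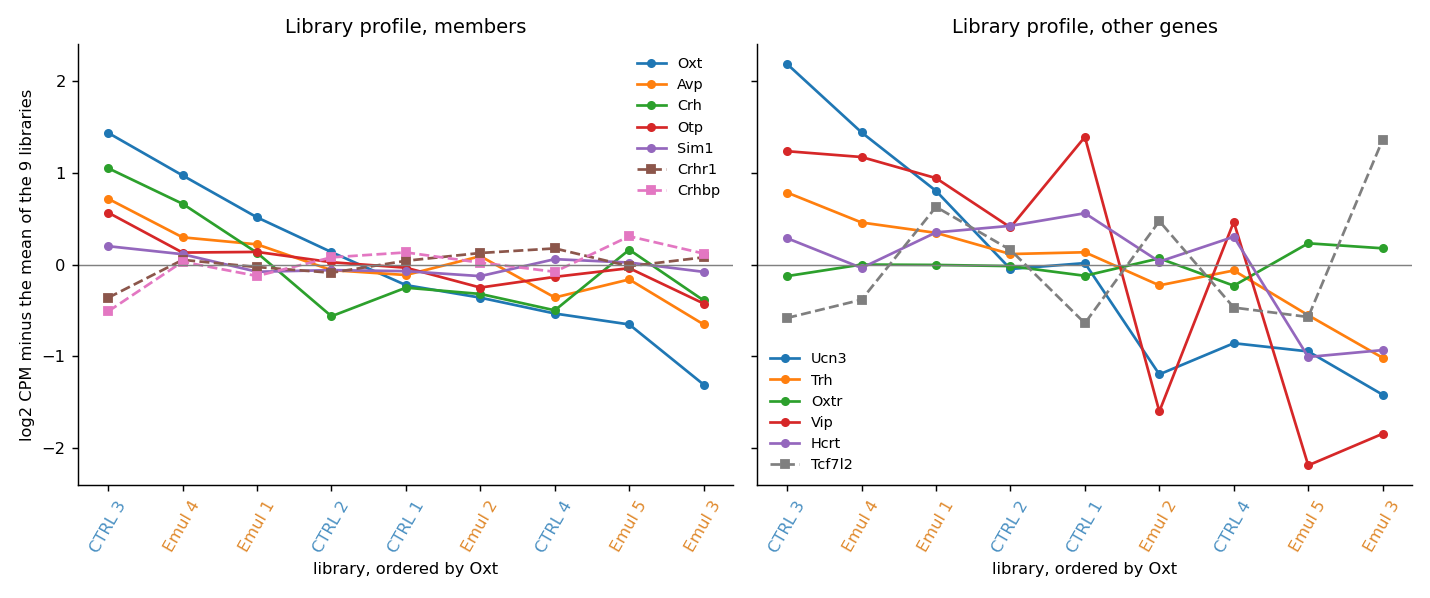
Log2 CPM in each library minus the mean of the 9 libraries, with libraries ordered by Oxt and coloured by group. Left, the 7 genes. Right, Ucn3, Trh and Oxtr with single markers of the suprachiasmatic nucleus (Vip), lateral hypothalamus (Hcrt) and thalamus (Tcf7l2). Oxt falls from CTRL 3 through Emul 4 to Emul 3 with both groups interleaved, and Ucn3 follows it.

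Other genes of the same systems were described from 4 lists, with 22 genes in all. In the CRH family, which besides Crh and Crhr1 holds the urocortins and the receptor CRHR2, 2 of 4 genes were tested, and 0 had an unadjusted p-value under 0.05. Ucn and Ucn2 stayed under 0.5 CPM in every library. Ucn3 (urocortin 3, a ligand of CRHR2) had log2 CPM of 0.10, 0.03, 2.27 and -0.78 in CTRL 1 to 4 and 0.88, -1.12, -1.34, 1.52 and -0.87 in Emul 1 to 5. As for Oxt, CTRL 3 and Emul 4 were the highest and Emul 3 the lowest, and its log2 fold change of -0.46 had an SE of 0.68 (limma-voom adjusted p = 0.785). For Crhr2 the log2 fold change was -0.17 (SE 0.13, limma-voom adjusted p = 0.529).

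Of the 4 receptors for vasopressin and oxytocin, Avpr1b and Avpr2 stayed under 0.5 CPM and were not tested. The oxytocin receptor gene Oxtr had log2 CPM of 3.33, 3.44, 3.33 and 3.22 in CTRL 1 to 4 and 3.45, 3.52, 3.63, 3.45 and 3.69 in Emul 1 to 5, so that every Emul library lay above every CTRL library, the closest being Emul 1 and CTRL 2. Its log2 fold change was 0.21 (SE 0.07, 95% confidence interval 0.06 to 0.37, unadjusted p = 0.0107, limma-voom adjusted p = 0.192), which is below the 1.5-fold cutoff. Among all genes tested, 6.84% were higher in Emul at an unadjusted p-value under 0.05. For the vasopressin receptor gene Avpr1a the log2 fold change was 0.11 (SE 0.09, limma-voom adjusted p = 0.602).

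The difference in Oxtr depended on its transcripts. Its transcript of 4704 bases held 73.1% of the counts in CTRL and 57.0% in Emul, at 7.32 ± 0.88 CPM (SD, n = 4) and 6.49 ± 1.14 CPM (SD, n = 5). The transcript of 3721 bases was at 2.68 ± 0.59 CPM in CTRL and 4.90 ± 1.22 CPM in Emul. Its estimated counts were 115, 124, 50.4 and 128 in CTRL 1 to 4. In Emul 1 to 5 they were 213, 132, 180, 231 and 242. In CPM the groups were apart only by a narrow margin, in a transcript singled out after its values were seen. The share of all transcripts without overlap was not computed. How well reads of the Oxtr transcripts can be told apart was not tested, so a change in their division was not established. In the authors' table, Oxtr followed the 4704-base transcript, at a median shift of 0.11 from its log2 CPM with no library departing from this by more than 0.01, whereas its difference from the sum of both ran from -0.94 to -0.18. For Oxtr in the authors' table, the log2 fold change was -0.15 (limma adjusted p = 0.646), of the opposite sign. Over 22 alternatives, an unadjusted p-value under 0.05 was found for Oxtr in 21, the table being the exception.

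Among 5 further transcription factors and regulators of these neurons, all were tested. Sim2, the closest relative of Sim1, had low log2 CPM of 1.06, 0.98, 0.79 and 0.78 in CTRL 1 to 4 and 0.60, 0.76, 0.25, 0.23 and 0.14 in Emul 1 to 5, and the groups did not overlap. Its log2 fold change was -0.52 (SE 0.16, 95% confidence interval -0.86 to -0.18, unadjusted p = 0.00571, limma-voom adjusted p = 0.173), short of the 1.5-fold cutoff, from 38.0 to 79.0 estimated counts per library. Without Emul 2 it was -0.62 (limma-voom adjusted p = 0.127), past the cutoff. Of all genes tested, 8.99% were lower in Emul at an unadjusted p-value under 0.05. For Sim2 this held in 22 of 22 alternatives, with adjusted p-values of 0.106 to 0.353. The highest log2 fold change of this list was that of Arnt2, whose protein pairs with SIM1 on DNA, at 0.03 (SE 0.03, limma-voom adjusted p = 0.628).

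Of 9 other peptide genes of paraventricular neurons, all were tested and 0 had an unadjusted p-value under 0.05. Trh, encoding the thyrotropin-releasing hormone that PVH neurons send to the pituitary, had the lowest log2 fold change, -0.40 (SE 0.26, limma-voom adjusted p = 0.484). Its log2 CPM was 5.68, 5.66, 6.33 and 5.48 in CTRL 1 to 4 and 5.89, 5.31, 4.52, 6.00 and 4.99 in Emul 1 to 5, with CTRL 3 highest, Emul 4 next and Emul 3 lowest. Nucb2, which encodes the precursor of nesfatin, had the highest, 0.09 (SE 0.05, limma-voom adjusted p = 0.376). The median log2 fold change was -0.32 for the CRH family, 0.16 for the vasopressin and oxytocin receptors, -0.08 for the factors and -0.01 for the other peptides, beside 0.00 over all genes tested and -0.05 over the 7 genes.

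Markers of neurons, oligodendrocytes and astrocytes were compared between the groups as well, and 0 of them had a limma-voom adjusted p-value under 0.05. Among all genes tested, 6.84% were higher and 8.99% lower in Emul at an unadjusted p-value under 0.05. All 5 neuron markers had a log2 fold change above 0, 3 of them with an unadjusted p-value under 0.05, and their sum was 2767 to 2980 CPM in CTRL and 2967 to 3151 CPM in Emul. All 5 oligodendrocyte markers had one below 0, 4 of them with an unadjusted p-value under 0.05, and summed to 12283 to 15495 CPM in CTRL and 9602 to 13099 CPM in Emul. All 5 astrocyte markers also had one below 0, 1 of them with an unadjusted p-value under 0.05, with sums of 1355 to 1469 CPM and 1215 to 1348 CPM. The part of these markers in the values of Oxtr, Sim2 or the 7 genes was not tested.

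**Figure D5:**
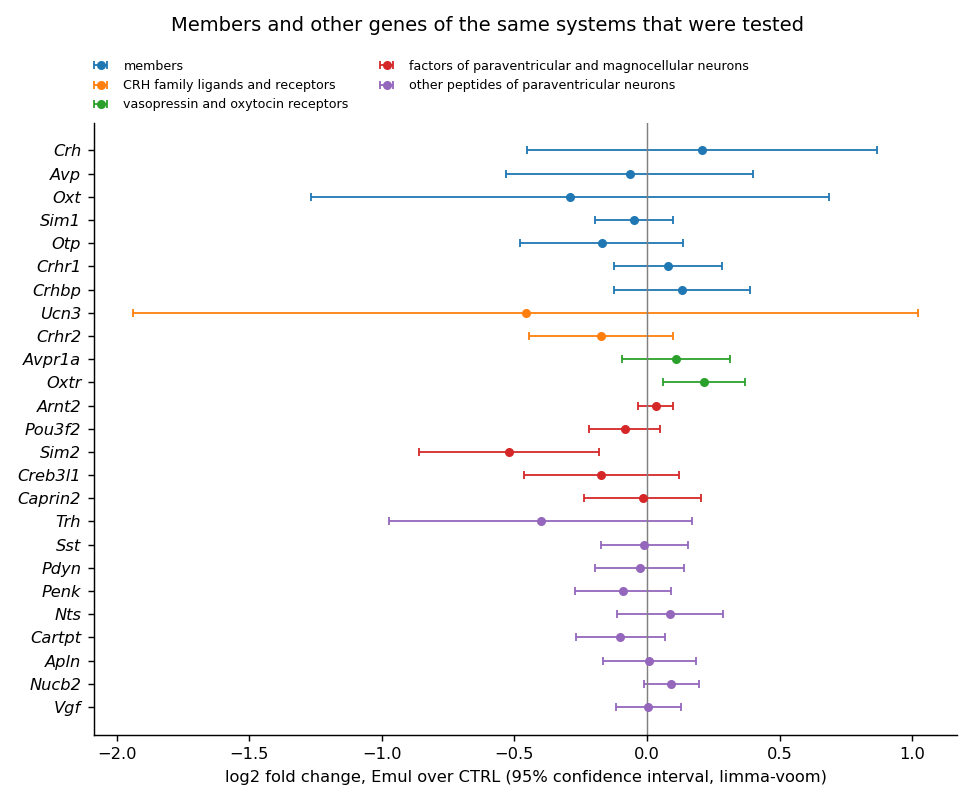
Log2 fold change of the 7 genes and of the 18 tested genes of the 4 other lists, Emul over CTRL, with 95% confidence intervals from limma-voom. Only the intervals of Oxtr (0.06 to 0.37) and Sim2 (-0.86 to -0.18) exclude 0.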

How the data were processed

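The authors quantified transcripts with kallisto on mm10. The submitters' processing notes name FastQC 0.11.9, kallisto 0.46.1 and edgeR 3.40.1. The deposited tables give estimated counts and TPM per library for 119414 transcripts, neither pooled nor filtered. The log2 CPM table that the authors made has 14593 entries, 1 of them unnamed. How transcripts were brought to genes for it is not given in the sources used here. Unused columns numbered 0.

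Transcripts were matched to genes by GENCODE M21 (97.8% matched, 97.3% with the same version). Unmatched transcripts carried 1.20% to 1.27% of the counts and were left out. Estimated counts of the transcripts of a gene were added up (whole numbers for edgeR and DESeq2). The filter on low values, which the 7 genes passed, asked for CPM above 1 in 4 or more libraries. Counts were scaled by TMM and fitted by limma-voom without covariates (limma 3.58.1, edgeR 4.0.16, R 4.3.3), with Benjamini-Hochberg adjustment over all genes tested. Confidence intervals are from the same fit. Log2 CPM of single libraries used a prior count of 2. The authors' table was fitted by limma with a trend. Exact permutation tests ran over all 126 splits into 4 and 5 libraries (smallest p = 0.0079) or, for correlations, all 362880 pairings. All tests were two-sided, and the fits across genes were tested on simulated data. TPM served only to order levels, for the Avp to Oxt ratio and, with a pseudocount of 0.1, as an alternative. Promoters came from RefSeq (GRCm38.p6), with an entry for 6 of the 7 genes, and transcript sequences from GENCODE.

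Replicates are libraries that the methods tie to separate litters, and p-values measure the spread between them. Within a group, every pair of libraries was farther apart than sampling of counts allows (chi-square per gene at least 7.50). No batch or date is given, so none was modelled. Correlations of deviations between libraries with the same number in both groups were -0.163, -0.0146, 0.0214 and -0.0551, so the numbers do not pair the libraries.

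The 7 genes and all lists were chosen with earlier results of these data known. Named were the 7 genes, the pathway genes past the cutoff or with the lowest or highest log2 fold change of their list, and the 5 genes nearest in profile to Crh, Avp and Oxt. Vip, Hcrt, Tcf7l2, the single arcuate markers named for CTRL 3 and the transcripts of Oxtr were singled out after their values were seen. Alternatives were edgeR 4.0.16, DESeq2 1.42.0, limma-trend, sample quality weights, other size factors and filters, counts scaled from TPM, mitochondrial genes left out, the authors' table, the replicate number as a block and each library left out. Leaving out CTRL 3 and Emul 4 together was added after seeing the data.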

Additional observations from a re-analysis of the deposited data

How the results depend on the processing

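Of 154 fits of the 7 genes under an alternative, 146 kept the direction and 8 reversed it, and in all of them the unadjusted p-value stayed above the threshold (adjusted p from 0.396 to 0.998). The direction changed for Avp with sample quality weights (0.0315) and without CTRL 3 and Emul 4 together (0.0533), for Crhr1 without these 2 (-0.0054) and for Crhbp and Oxtr in the authors' table (-0.16 and -0.15), where the values follow 1 transcript. With each library left out in turn, the log2 fold change ran from -0.20 to 0.14 for Avp, -0.59 to 0.0692 for Oxt, 0.04 to 0.51 for Crh, -0.0010 to 0.16 for Crhr1, 0.03 to 0.20 for Crhbp, -0.25 to -0.04 for Otp and -0.09 to -0.01 for Sim1. The library behind the changes of sign was CTRL 3 for Oxt and Crhr1, and CTRL 3 or Emul 3 for Avp. The number of correlated pairs ran from 0 (without CTRL 3) to 8, with 2 without Emul 4. In place of log2 CPM, log2(TPM + 0.1) lowered the median difference of all genes by 0.10 (shift -0.10) and gave Crhr1 a difference of -0.0014. By CPM, the ranks of Sim1, Crhbp and Crhr1 were 4, 5 and 6. With the replicate number as a block (Emul 5 has no partner), log2 fold changes were 0.11 for Crh, -0.04 for Avp, -0.14 for Oxt, -0.06 for Sim1, -0.19 for Otp, 0.09 for Crhr1 and 0.07 for Crhbp. No call of the 7 genes changed. Genes past the cutoff among all tested numbered 683 of 27665 with no filter on low counts, 37 of 14593 with a CPM above 1 in all libraries and 48 of 15277 without Emul 3, and genes with an adjusted p-value under 0.05 ran from 0 without CTRL 2 to 341 with DESeq2, against 18. A change of 1.5-fold in Crh or Oxt lay within the confidence interval, since these genes varied most between libraries, and the fewest counts on any of the 7 genes were 81, for Crh.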
